A study of Mus musculus with 11 samples.

Results

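Immediate early response genes are switched on within minutes of a signal such as a growth factor, serum or electrical activity, before any new protein has to be made. The 10 genes described here were chosen by their symbols (Fos, Fosb, Jun, Junb, Jund, Egr1, Egr2, Ier2, Atf3 and Nr4a1) out of 37991 genes in a table of RNA levels, and all 10 were found. The RNA came from C57BL/6J mouse cells taken from the frontal cortex of E14.5 embryos and grown as neural stem cells on PDL/LMN-coated flasks. Poly(A) RNA was sequenced in 3 libraries from cells in proliferation medium at day 0 (group NSC) and 8 libraries from cells kept for 4 days in another medium. The Astrocyte group (3 libraries) received DMEM with 1% fetal bovine serum and 1% N-2 supplement, the Neuron group (3 libraries) Neurobasal with 2% B-27 supplement, and the Oligodendrocyte group (2 libraries) the same medium as the Neuron group with the thyroid hormone T3 added at 30 ng/mL. GlutaMAX-1 was in all 3 of these media. The group names stand for the medium a culture received. No culture was kept in proliferation medium until day 4, so the change of medium and the 4 days in culture cannot be told apart. The labels state that media were renewed every 48 h, and the time from the last renewal to collection is not given in the sources used here.

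Most of these genes encode transcription factors. Fos and Fosb proteins pair with Jun, Junb or Jund through leucine zippers to form AP-1, whose sites fall within the pattern TGANTCA (N for any base). Atf3 belongs to the same bZIP class as these proteins. Egr1 and Egr2 are zinc finger factors, Nr4a1 (Nur77) is an orphan nuclear receptor, and Ier2 is a small nuclear protein made early after growth factor stimulation. ERK signalling to serum response factor and its ELK partners, and CREB bound to cyclic AMP response elements, are well-known routes to their promoters. In neural cells Egr1 and Fos serve widely as markers of recent stimulation, and Egr2 is best known for myelination by Schwann cells.

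The promoters of 5 of these genes are shown because the genes moved in 2 ways that the later results turn on. Fos, Junb and Nr4a1 were each lower in the T3-containing medium than in the same medium without T3, and Jun and Egr2 were each lower than at day 0 in all 3 media. Each line holds the 250 bases upstream of the RefSeq transcription start on mouse build GRCm38.p6, 5′ to 3′ on the gene's strand. Capitals mark TGACG on either strand (CGTCA on the other; the core of the cyclic AMP response element TGACGTCA, in which it is contained), a CArG box (the serum response element's core) and TATAAA.
Fos, chr12:85473640-85473889, plus strand: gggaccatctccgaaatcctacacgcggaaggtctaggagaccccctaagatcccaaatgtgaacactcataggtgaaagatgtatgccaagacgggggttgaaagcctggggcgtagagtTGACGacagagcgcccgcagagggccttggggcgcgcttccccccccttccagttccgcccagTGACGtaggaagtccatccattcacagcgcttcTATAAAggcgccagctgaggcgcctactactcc
Junb, chr8:84978749-84978998, minus strand: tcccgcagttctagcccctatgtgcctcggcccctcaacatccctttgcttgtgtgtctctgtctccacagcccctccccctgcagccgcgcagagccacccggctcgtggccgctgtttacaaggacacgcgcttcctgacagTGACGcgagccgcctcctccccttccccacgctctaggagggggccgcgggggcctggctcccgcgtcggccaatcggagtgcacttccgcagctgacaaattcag
Nr4a1, chr15:101266596-101266845, plus strand: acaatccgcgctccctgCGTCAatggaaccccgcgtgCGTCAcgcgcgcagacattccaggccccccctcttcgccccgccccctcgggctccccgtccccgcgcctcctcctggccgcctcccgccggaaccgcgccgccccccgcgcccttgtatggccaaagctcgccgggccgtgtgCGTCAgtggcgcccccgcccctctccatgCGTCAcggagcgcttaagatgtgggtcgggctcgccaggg
Jun, chr4:95052223-95052472, minus strand: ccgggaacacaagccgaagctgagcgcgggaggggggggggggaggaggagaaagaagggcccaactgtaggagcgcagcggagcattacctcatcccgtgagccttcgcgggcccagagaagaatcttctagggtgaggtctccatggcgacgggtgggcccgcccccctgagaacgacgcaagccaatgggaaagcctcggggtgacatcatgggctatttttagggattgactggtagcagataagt
Egr2, chr10:67537619-67537868, plus strand: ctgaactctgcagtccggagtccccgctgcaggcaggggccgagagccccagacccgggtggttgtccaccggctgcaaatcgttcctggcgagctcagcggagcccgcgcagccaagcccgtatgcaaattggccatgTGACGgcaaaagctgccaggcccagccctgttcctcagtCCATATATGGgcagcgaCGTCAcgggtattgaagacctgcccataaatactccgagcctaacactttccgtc

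RefSeq windows were matched for 8 of the 10 genes. TGACG was in the windows of 6 of these 8 (Fos, Fosb, Junb, Egr2, Atf3 and Nr4a1), against 17.8% of 32851 windows over 27025 genes. Nr4a1 held 4 matches, and Fos and Egr2 held 2 each. The Egr2 window held the only CArG box among the 8, a motif found in 1.47% of all windows. TATAAA was in the Fos window alone, 33 bases upstream of the start, against 12.4% of all windows. Searched on both strands, the whole element TGACGTCA was in 0 of the 8 windows (1.55% of all windows). The pattern TGANTCA, which takes in the AP-1 sites and is wider than they are, was also in 0 (6.75%). GGGCGG was in 5 of the 8 (32.7% of all windows) and CCAAT in 3 (33.8%). The start site of the Jund window lies 1210 bases from that in the GENCODE annotation, and the window is not printed. These matches describe the letters of the windows only.

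The deposited values are CPM, in which each library's reads are scaled to the same total. Values stepped by 0.0151 to 0.0203 CPM for 1 read, which puts the totals at 49.3 to 66.2 M (mega) reads. Of all genes, 13342 had at least 1 CPM in at least 2 libraries and were tested. All 10 genes described passed, Fosb only through its 3 Astrocyte libraries (1.04 to 1.2 CPM) and Atf3 only through Astrocyte and Oligodendrocyte libraries, so these genes had to differ somewhere to be tested. Differences were tested with limma on log2(CPM + 1) over all 13342 genes and called at a Benjamini-Hochberg adjusted p under 0.05; a log2 fold change on this scale understates the change of low genes. The series calls its replicates biological without naming separate embryos or cultures, so the p-values measure the spread between these libraries. The median gene was higher by 0.15, 0.06 and 0.19 log2 in Astrocyte, Neuron and Oligodendrocyte than in NSC, by 0.10 in Astrocyte and 0.15 in Oligodendrocyte than in Neuron, and by 0.04 in Oligodendrocyte than in Astrocyte. Median-of-ratios scaling removes most of that shift and moved the share of called genes that were higher from 59.9% to 49.9% for Oligodendrocyte against NSC, from 64.7% to 52.8% for Astrocyte against Neuron and from 65.1% to 52.5% for Oligodendrocyte against Neuron.

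By their markers the groups did not hold single cell types. Summed over 6 astrocyte markers, the level was 1429 to 1481 CPM in NSC, 11070 to 12690 in Astrocyte, 6881 to 7461 in Neuron and 2065 to 2278 in Oligodendrocyte. Gfap (7631 CPM in Astrocyte, 2647 in Neuron) and Aqp4 carried the excess of Astrocyte over Neuron, while the other 4 (S100b, Slc1a3, Slc1a2 and Aldh1l1) were called lower in Astrocyte than in Neuron. Summed over 6 oligodendrocyte markers, it was 67.9 to 75.7, 407 to 518, 2505 to 2680 and 2406 to 2755 CPM in the same order. The 5 neuron markers measured summed to 142.9 to 225.5 CPM in the Neuron group and 151.2 to 205.6 in the Astrocyte group. The Neuron medium did not stand apart by this sum, but single markers differed. Syt1 (-1.40 log2) and Rbfox3 (-0.66) were called lower in Astrocyte than in Neuron, Tubb3 higher (0.48), and 2 were not called. Syt1 was at 8.0 to 12.8 CPM in Neuron and at most 6.71 in NSC, 3.75 in Astrocyte and 4.47 in Oligodendrocyte. The 4 oligodendrocyte precursor markers summed to 1782 to 1910 CPM in NSC, 414 to 452 in Astrocyte, 848 to 1033 in Neuron and 722 to 774 in Oligodendrocyte, with 3 of the 4 called lower and Pdgfra higher in each medium against NSC. The 5 neural progenitor markers summed to 3402 to 3524 CPM in NSC, 3187 to 3562 in Astrocyte, 1544 to 1930 in Neuron and 2142 to 2191 in Oligodendrocyte. Of these, Nes was called lower in all 3 media (log2 fold changes -2.65, -4.14 and -1.58). Against NSC, 3 of the 5 were called higher and 2 lower in both Astrocyte and Neuron. In Oligodendrocyte 0 were called higher and 3 lower. Microglia can carry high early response RNA, and their 8 markers summed to 0.29 to 1.32 CPM over the libraries, of which P2ry12 gave the most (0.29 to 1.29 CPM). Csf1r was at 0 to 0.23 CPM, Ptprc at 0 to 0.05 CPM, and Cx3cr1, Aif1, Tyrobp, C1qa and C1qb at 0 to 0.03 CPM. Of 5 endothelial markers, Cdh5 and Cldn5 were at 0 to 0.03 CPM and only Kdr passed 1 CPM (summed level 1.09 to 7.37 CPM), and of 6 mesenchymal markers only Pdgfrb did (summed level 0.99 to 1.12 CPM in NSC and 8.27 to 42.5 on day 4). The mitochondrial share of CPM was 4.54% to 4.71% in NSC and 6.13% to 8.91% on day 4, so it moves with every comparison against NSC. The part of cell makeup or of this share in the results was not tested.

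The 10 genes did not move as a block. After 4 days Egr1, Egr2, Jun and Ier2 were lower than at day 0 in all 3 media, while Fos was higher in the Astrocyte and Neuron media and Jund and Atf3 in the Astrocyte and Oligodendrocyte media. Junb and Nr4a1 fell in the Oligodendrocyte medium. Nes and 3 of the 4 oligodendrocyte precursor markers were also lower in all 3 media than at day 0. The progenitor markers did not fall together, as Sox2 and Pax6 were called higher in Astrocyte and Neuron than in NSC. The part of these markers in the drops of Egr1, Egr2, Jun and Ier2 was not tested. In bulk RNA, fewer cells that express a gene and less of its RNA per cell cannot be told apart.

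**Figure D1:**
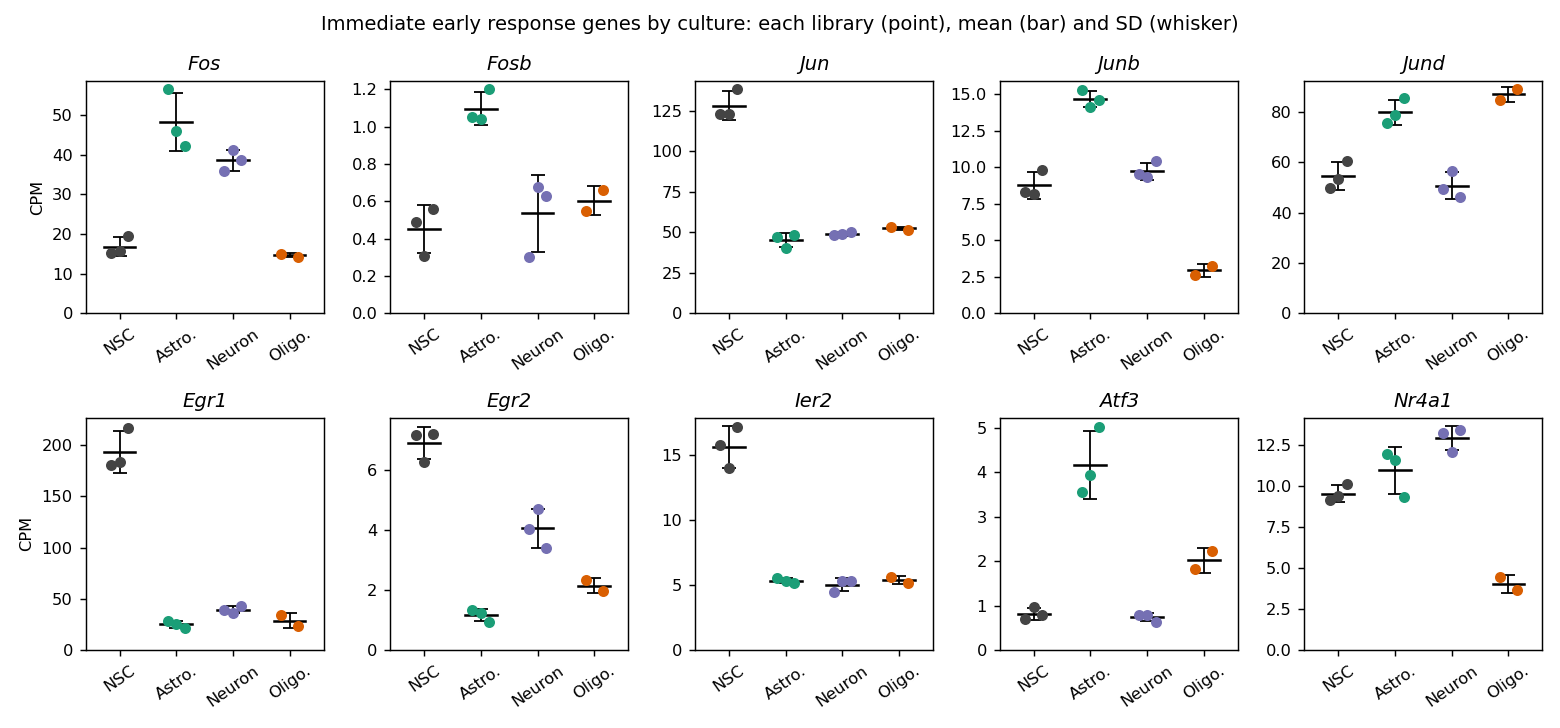
RNA level (CPM, linear axis from 0) of each of the 10 genes in 4 groups; points are libraries, bars are means and whiskers are SDs (n = 3, 3, 3 and 2). Egr1, Egr2, Jun and Ier2 were highest in the 3 NSC libraries, Fos in the 3 Astrocyte libraries, and Junb and Nr4a1 lowest in the 2 Oligodendrocyte libraries.

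Fos, the founding AP-1 subunit and the one most often read as a sign of recent stimulation, stood at 15.3, 15.6 and 19.6 CPM in the 3 NSC libraries. It was at 56.4, 46.0 and 42.3 CPM in the Astrocyte libraries, 35.8, 41.1 and 38.6 CPM in the Neuron libraries, and 15.1 and 14.3 CPM in the Oligodendrocyte libraries. All 6 Astrocyte and Neuron libraries were above all NSC libraries, and both Oligodendrocyte libraries were just below the lowest NSC library. Fos rose in Astrocyte against NSC by 1.46 log2 (SE 0.110, adjusted p = 2.28e-08) and in Neuron by 1.15 (SE 0.110, adjusted p = 3e-07). The Oligodendrocyte difference from NSC was -0.18 with a 95% interval of -0.44 to 0.09 (adjusted p = 0.197). It was called under median-of-ratios scaling (-0.38, adjusted p = 0.00856) and quantile normalization (-0.37, adjusted p = 0.00972), with a range of adjusted p over all alternatives of 0.00856 to 0.596. Among the media, Fos was lower with T3 than without (-1.33 log2, SE 0.123, adjusted p = 6.52e-07). Its excess in Astrocyte over Neuron, 0.31 log2 (adjusted p = 0.026), was no longer called with median-of-ratios scaling (0.21, adjusted p = 0.103; range over all alternatives 0.00983 to 0.131), without Astrocyte replicate 1 (0.131), without Neuron replicate 1 (0.0876) or without Neuron replicate 3 (0.057).

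Fosb, a paralog of Fos that also has a truncated splice form, was near the floor of the test. Its libraries held 0.49, 0.31 and 0.56 CPM in NSC, 1.05, 1.04 and 1.2 CPM in Astrocyte, 0.30, 0.68 and 0.63 CPM in Neuron, and 0.55 and 0.66 CPM in Oligodendrocyte. The 3 Astrocyte libraries lay above the other 8, which overlapped one another. These values rest on an estimated 15 to 71 reads a library. Fosb was higher in Astrocyte than in NSC by 0.53 log2 (SE 0.109, adjusted p = 0.000473), a call that quantile normalization turned to -0.14 (adjusted p = 0.257; range over all alternatives 0.000126 to 0.257). The intervals against NSC were -0.16 to 0.31 log2 for Neuron and -0.12 to 0.41 for Oligodendrocyte, and neither was called. Under quantile normalization both were called lower (-0.40, adjusted p = 0.00493, and -0.46, adjusted p = 0.00394), with ranges of adjusted p over all alternatives of 0.00493 to 0.987 and 0.00394 to 0.626.

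Jun, the strongest activator among the JUN proteins, had 123, 123 and 138 CPM in NSC, 46.9, 40.1 and 48.4 CPM in Astrocyte, 48.3, 48.85 and 50.4 CPM in Neuron, and 53.2 and 51.8 CPM in Oligodendrocyte. Every NSC library was more than any day 4 library, and the 3 media lay within 40.1 to 53.2 CPM. Jun fell against NSC in each medium, with log2 fold changes of -1.49 in Astrocyte (SE 0.0738, adjusted p = 2.54e-10), -1.36 in Neuron (adjusted p = 7.17e-10) and -1.27 in Oligodendrocyte (adjusted p = 5.94e-09). With T3 against none Jun was not called, and the interval was -0.09 to 0.27 log2 (adjusted p = 0.334). The excess in Oligodendrocyte over Astrocyte, 0.22 log2 (adjusted p = 0.0403), had an adjusted p of 0.0123 to 0.168 over the alternatives. It was not called without NSC replicate 1 or 2 (0.0539 and 0.0512), without Astrocyte replicate 2 (0.162) or without Oligodendrocyte replicate 1 or 2 (0.168 and 0.111).

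Junb, which often opposes Jun at shared targets, followed another pattern. It was at 8.32, 8.14 and 9.84 CPM in NSC, 15.3, 14.15 and 14.6 CPM in Astrocyte, 9.52, 9.30 and 10.4 CPM in Neuron, and 2.63 and 3.27 CPM in Oligodendrocyte. NSC and Neuron libraries overlapped, all Astrocyte libraries were above them and both Oligodendrocyte libraries below. Against NSC, Junb rose in Astrocyte by 0.69 log2 (SE 0.0916, adjusted p = 9.42e-06) and fell in Oligodendrocyte (-1.31 log2, SE 0.102, adjusted p = 4.41e-08). With T3 it was lower than in Neuron (-1.45 log2, SE 0.102, adjusted p = 5.29e-08), and it was lower than in Astrocyte by -1.99 on the log2 scale (adjusted p = 5.7e-09).

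Jund, the JUN member that is least inducible and present in many resting cells, had 49.9, 53.2 and 60.4 CPM in NSC and 49.2, 56.6 and 46.2 CPM in Neuron. It had 75.7, 78.7 and 85.35 CPM in Astrocyte and 84.85 and 89.1 CPM in Oligodendrocyte. The 5 Astrocyte and Oligodendrocyte libraries were above the 6 others, with overlap within each set. Jund was higher than in NSC by 0.55 log2 in Astrocyte (SE 0.0857, adjusted p = 4.41e-05) and by 0.67 in Oligodendrocyte (SE 0.0958, adjusted p = 2.09e-05). T3 against none gave 0.77 log2 (SE 0.0958, adjusted p = 1.03e-05), opposite in sign to Junb.

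Because these genes have different lengths, levels were compared between them only as CPM per kb of transcript. In NSC, Jun made up 62.9% ± 0.819 (SD, n = 3) of the summed Jun, Junb and Jund level and Jund 29.6% ± 0.839. Jun's share was 28.2% ± 1.75 in Astrocyte, 40.2% ± 1.91 in Neuron (n = 3 each) and 34.0% ± 1.34 in Oligodendrocyte (n = 2). Jund's share was 55.5% ± 2.11, 45.8% ± 3.15 and 62.5% ± 0.919 in the same groups, so Jun was the major transcript of the family in each NSC library and Jund in each day 4 library. Junb held 7.57% in NSC, 16.3% in Astrocyte, 14.0% in Neuron and 3.38% in Oligodendrocyte. The summed level was 64.0 CPM per kb in NSC, 50.0 in Astrocyte, 38.4 in Neuron and 48.3 in Oligodendrocyte. These 3 genes have no introns, so their mm9 spans served as lengths. With GENCODE M21 exon lengths the Jun share was 52.4% in NSC and 20.7%, 30.9% and 23.6% in the 3 media. The same gene led in every group. The summed level was then 76.7 CPM per kb in NSC, 68.4 in Astrocyte, 50.0 in Neuron and 69.9 in Oligodendrocyte. The order of Astrocyte and Oligodendrocyte in the summed level thus depended on the lengths.

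**Figure D2:**
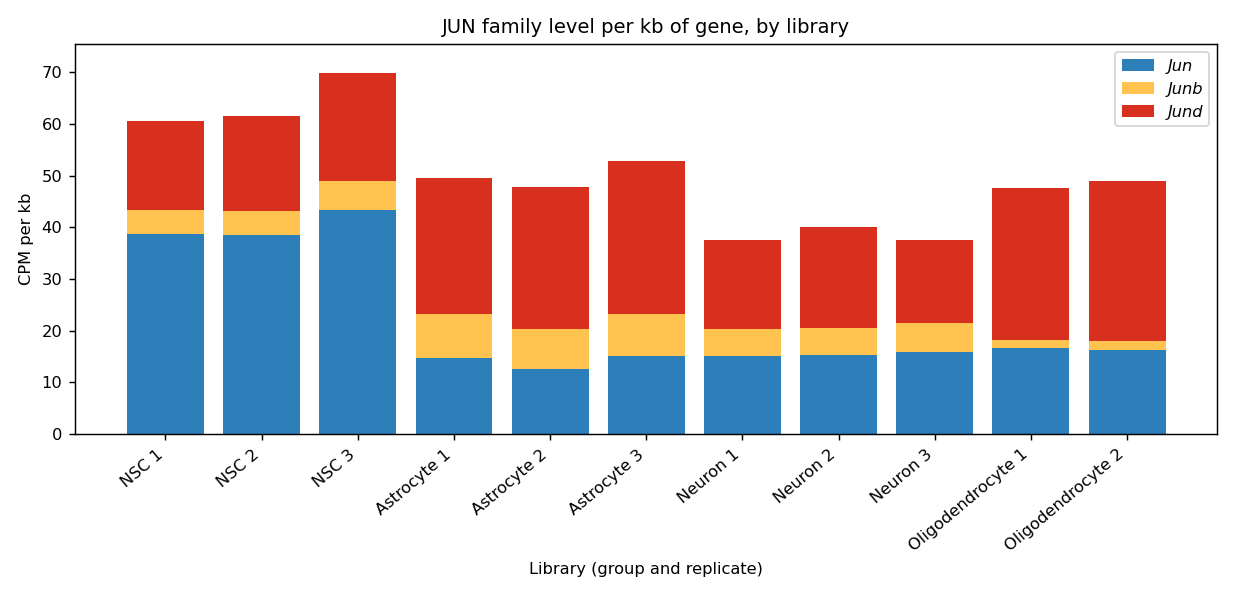
Stacked level (CPM per kb, axis from 0) of Jun, Junb and Jund in each of the 11 libraries. Jun is the largest segment in the 3 NSC libraries and Jund in the 8 day 4 libraries, and the Junb segment is smallest in the 2 Oligodendrocyte libraries.

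In the FOS family, on the same per-length scale, Fos held 86.6% of the sum of Fos, Fosb, Fosl1 and Fosl2 in NSC, 92.9% in Astrocyte, 93.3% in Neuron and 78.7% in Oligodendrocyte. Fosl2 held 11.2%, 5.35%, 5.94% and 18.2%. The summed level ranged over 19.4 to 25.8 CPM per kb in Astrocyte and 7.70 to 8.17 in Oligodendrocyte. Fosl2 itself, in CPM, was 8.86 ± 0.528 in NSC and 14.0 ± 0.205 in Oligodendrocyte, a called rise of 0.60 log2 (adjusted p = 0.000284).

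Atf3, a stress-induced bZIP factor, was at 0.69, 0.96 and 0.78 CPM in NSC and 0.79, 0.79 and 0.63 CPM in Neuron. It was at 3.55, 3.94 and 5.01 CPM in Astrocyte and 1.82 and 2.22 CPM in Oligodendrocyte. The NSC and Neuron libraries overlapped, both Oligodendrocyte libraries lay above them and the Astrocyte libraries above those. Atf3 rose in Astrocyte against NSC by 1.51 log2 (SE 0.111, adjusted p = 1.86e-08) and was higher than in Neuron by 1.56 (adjusted p = 6.21e-08). With T3 it was higher than without by 0.80 log2 (SE 0.124, adjusted p = 8.14e-05). The rise in Oligodendrocyte over NSC, 0.74 log2 (adjusted p = 9.33e-05), became 0.09 under quantile normalization (adjusted p = 0.574; range over all alternatives 9.19e-06 to 0.574).

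Egr1, a zinc finger factor induced through ERK and serum response factor, showed the steepest drop of the 10 genes. NSC libraries held 180.3, 184 and 217 CPM, Astrocyte libraries 28.4, 25.6 and 21.5 CPM, Neuron libraries 39.6, 35.8 and 42.7 CPM, and Oligodendrocyte libraries 34 and 23.7 CPM. The lowest NSC library was more than 4 times the highest of the day 4 libraries. Against NSC the log2 fold change of Egr1 was -2.90 in Astrocyte (SE 0.129, adjusted p = 8.01e-11), -2.27 in Neuron (SE 0.129, adjusted p = 1.18e-09) and -2.72 in Oligodendrocyte (SE 0.144, adjusted p = 6.8e-10). Neuron libraries stayed above those of both other media, and Astrocyte was lower than Neuron by a log2 difference of -0.63 (adjusted p = 0.000823). The Oligodendrocyte difference from Neuron, -0.45 log2 (adjusted p = 0.0132), was not called without Oligodendrocyte replicate 2 (-0.20, adjusted p = 0.268; range over all alternatives 0.000925 to 0.268). Per kb, Egr1 was the highest of the 10 genes in NSC by mean (43.2 ± 4.53 CPM per kb), with Jun overlapping it (40.2 ± 2.77). On day 4 Jund was the highest per kb in every medium by mean, at 27.8 ± 1.72 CPM per kb in Astrocyte, 17.6 ± 1.85 in Neuron and 30.2 ± 1.04 in Oligodendrocyte. In Neuron the libraries of Jund and Fos (16.4 ± 1.12) overlapped, as did those of Fos and Jun (15.4 ± 0.34). The overlap of Jund and Fos depended on the length used. With the GENCODE M21 exon length Jund was at 27.7 to 33.9 CPM per kb in Neuron, above Fos (15.2 to 17.5). Egr1 (6.43 ± 1.63 CPM per kb) overlapped Fos in Oligodendrocyte, and Fosb was the lowest of the 10 in every group.

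Egr2, its paralog, separated all 4 groups. It had 7.16, 6.26 and 7.19 CPM in NSC, 4.04, 4.69 and 3.40 CPM in Neuron, 2.32 and 1.96 CPM in Oligodendrocyte, and 1.32, 1.24 and 0.93 CPM in Astrocyte, with no overlap between any groups. Egr2 fell in every medium, with log2 fold changes against NSC of -1.87 in Astrocyte (SE 0.111, adjusted p = 1.78e-09), -0.65 in Neuron (adjusted p = 9.9e-05) and -1.33 in Oligodendrocyte (adjusted p = 2.77e-07). With T3 it was lower than without (-0.68 log2, adjusted p = 0.000305).

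Ier2 spanned a narrow range over the media. It was at 15.75, 14.0 and 17.1 CPM in NSC, 5.55, 5.31 and 5.18 CPM in Astrocyte, 4.48, 5.30 and 5.32 CPM in Neuron, and 5.62 and 5.16 CPM in Oligodendrocyte. The 3 day 4 groups overlapped and all their libraries were below every NSC library. Ier2 fell in every medium, with fold changes of -1.38 log2 in Astrocyte (adjusted p = 5.44e-09), -1.46 in Neuron (adjusted p = 3.27e-09) and -1.38 in Oligodendrocyte (adjusted p = 2.43e-08). Between media the 95% intervals were -0.12 to 0.27 for Astrocyte against Neuron, -0.14 to 0.31 for Oligodendrocyte against Neuron and -0.21 to 0.23 for Oligodendrocyte against Astrocyte, with none called.

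Nr4a1 was at 9.10, 9.36 and 10.1 CPM in NSC, 11.95, 11.55 and 9.30 CPM in Astrocyte, 13.2, 12.04 and 13.4 CPM in Neuron, and 4.42 and 3.63 CPM in Oligodendrocyte. Neuron libraries were the highest, NSC and Astrocyte overlapped, and both Oligodendrocyte libraries were below the rest. Against NSC it rose in Neuron by 0.40 log2 (SE 0.0995, adjusted p = 0.00204) and fell in Oligodendrocyte (-1.07 log2, SE 0.111, adjusted p = 8.51e-07). The Astrocyte difference, 0.18 log2 with an interval of -0.04 to 0.39, was not called (adjusted p = 0.114). It was called without Astrocyte replicate 3 (0.28, adjusted p = 0.0158; range over all alternatives 0.0158 to 0.897). The T3 contrast was -1.47 log2 (SE 0.111, adjusted p = 1e-07), close to that of Junb. Astrocyte against Neuron was not called (-0.22 log2, adjusted p = 0.0651; range over all alternatives 0.00108 to 0.29).

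Counted by comparison, 9 of the 10 genes were called in Astrocyte against NSC, where 83.6% of all tested genes were called. Of them 5 were higher and 4 lower, beside 48.0% and 35.6% of all tested genes. The 5 include Fosb and Atf3, which passed the filter only through groups where they are high, so their calls were favoured by it. In Neuron against NSC 6 were called (83.1% of all tested genes), 2 higher and 4 lower, beside 43.5% and 39.6%. Fosb, Junb, Jund and Atf3 were not called there, but under quantile normalization Fosb and Atf3 (-0.54, adjusted p = 0.00103; range over all alternatives 0.00103 to 0.997) were called lower, which makes 6 lower. In Oligodendrocyte against NSC 8 were called (80.2% of all tested genes), 2 higher and 6 lower, beside 48.1% and 32.2%. The 2 higher include Atf3, whose call was favoured by the filter here too. A change against NSC was thus the rule for tested genes, and a share over 10 genes is too coarse to set these genes apart. These 3 comparisons share the NSC libraries.

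**Figure D3:**
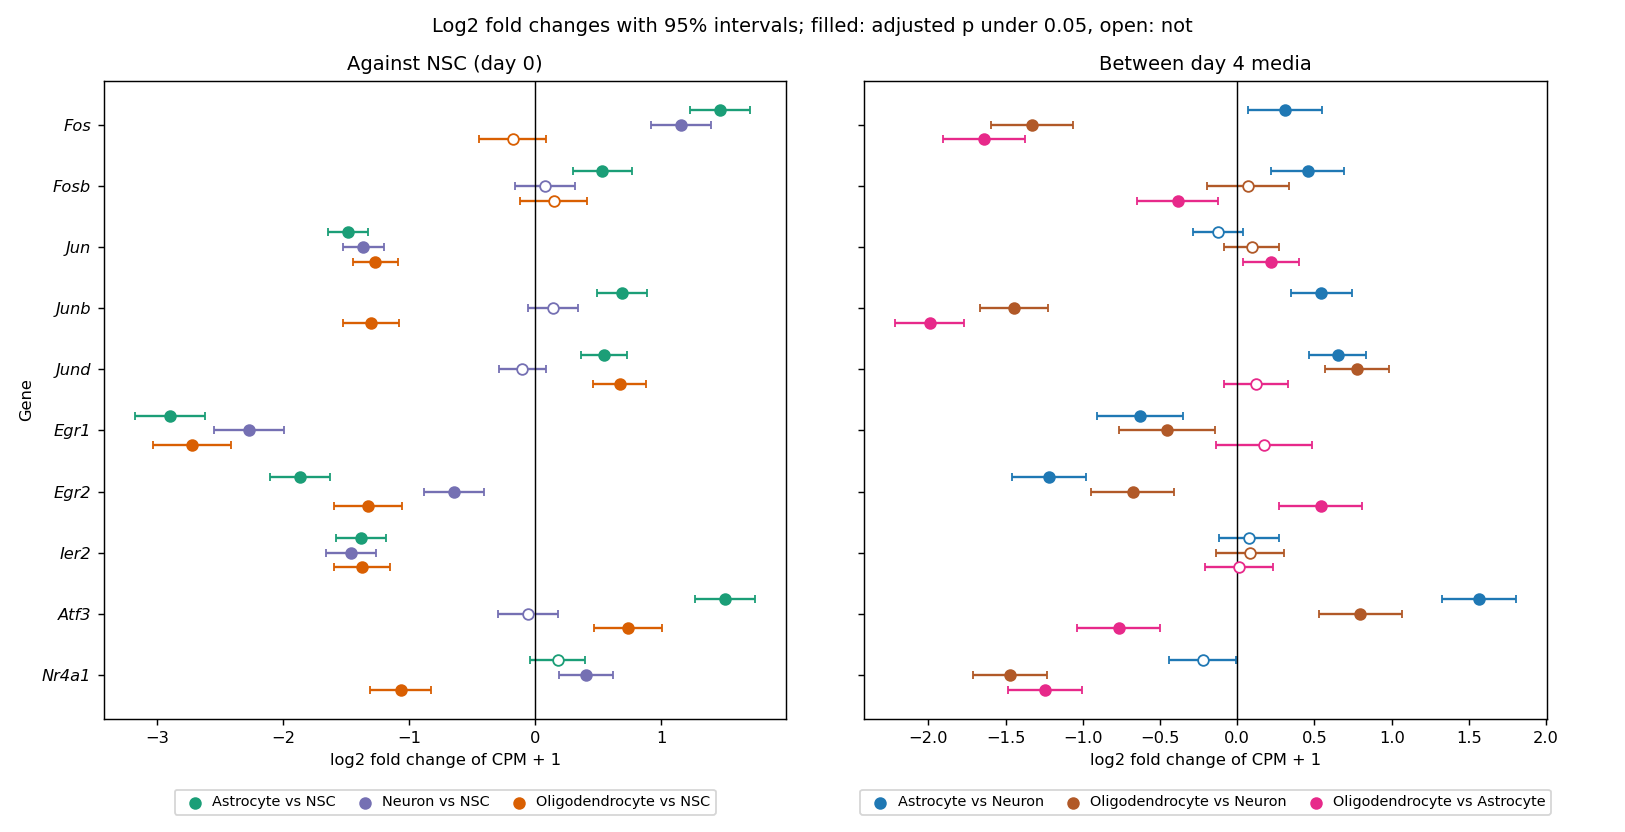
Log2 fold changes of CPM + 1 (x axis) of the 10 genes with 95% intervals, on the left for the 3 media against NSC and on the right between media; filled points had an adjusted p under 0.05. On the left Jun, Egr1, Egr2 and Ier2 lie below 0 in all 3 media, and on the right Fos, Junb and Nr4a1 lie at -1.33, -1.45 and -1.47 for Oligodendrocyte against Neuron.

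The Oligodendrocyte and Neuron media differ, per the labels, only in T3, so the comparison between them asks what differed with the hormone. With T3 against none 7 of the 10 genes were called, as were 67.5% of all tested genes. Called lower with T3 were Fos, Junb, Nr4a1, Egr1 and Egr2 (5 of 10), where 23.6% of all tested genes were called lower. Called higher were Jund and Atf3 (2 of 10), where 43.9% of all tested genes were called higher. Atf3 passed the filter only through Astrocyte and Oligodendrocyte libraries, so its call was favoured by it. The intervals for the 3 not called were -0.19 to 0.34 log2 for Fosb, -0.09 to 0.27 for Jun and -0.14 to 0.31 for Ier2. All 6 astrocyte markers were also called lower with T3. Of the 5 neuron markers 3 were called lower and 1 higher (Tubb3, 0.64 log2), and of the 6 oligodendrocyte markers 2 were called higher and 2 lower. Their part in the result was not tested.

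Between Astrocyte and Neuron, 7 of the 10 genes were called (62.2% of all tested genes). Fos, Fosb, Junb, Jund and Atf3 (5 genes) were higher in Astrocyte and Egr1 and Egr2 lower, beside 40.3% and 22.0% of all tested genes. Fosb passed the filter only through Astrocyte libraries and Atf3 only through Astrocyte and Oligodendrocyte libraries, so the calls of both were favoured by it. Jun was not called (-0.13 log2, adjusted p = 0.156), and was called lower under median-of-ratios scaling (-0.23, adjusted p = 0.0103) and quantile normalization (adjusted p = 0.0125; range over all alternatives 0.0103 to 0.611). Between Oligodendrocyte and Astrocyte, 7 were called (52.2% of all tested genes). Jun and Egr2 (2 genes) were higher and Fos, Fosb, Junb, Atf3 and Nr4a1 (5 genes) lower, beside 28.7% and 23.5%. The filter also favoured the call of Fosb there. The serum in the Astrocyte medium is a textbook inducer of these genes, and the base medium and supplement also differ between these groups, so serum and the rest of the medium cannot be told apart.

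Replicates of a group varied more for some of these genes than for others at a like level. The residual SD of Egr1 over the 4 groups, 0.199 log2, was above that of 94.6% of 2425 genes of like mean level, and that of Fos, 0.160, above 89.3% of 2667. Jund was above 73.4%, and the other 7 genes lay between 33.5% and 60.3%. Early response RNA turns over quickly and is known to react to handling. The fit pulls the variance of each gene towards a trend over all genes. The standard errors above for Fos and Egr1 therefore carry this spread only in part.

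Over the 11 libraries, Jun, Ier2 and Egr1 had Pearson r of 0.96 to 0.98 with one another on the log2 scale, and Junb and Nr4a1 had r = 0.868. Fos and Jun had r = -0.652. These values describe 11 libraries that fall into 4 groups and are set mostly by the group means. The tested genes whose pattern was most like each of the 10 were Ldb2 (r = 0.9842) and Zfp36l1 (0.9836) for Fos, Rsl1d1 (0.9975) and Phc2 (0.9969) for Jun, Crispld2 (0.9875) and Slc25a18 (0.9728) for Junb, and Chchd6 (0.9929) and Rnf187 (0.9917) for Jund. For Egr1 they were Exosc7 (0.9946) and Nab2 (0.9944), for Egr2 Snhg5 (0.983), and for Ier2 Rrs1 (0.9973) and Hat1 (0.9969). For Fosb they were Inhbb (0.9653) and Psme2 (0.9516), for Atf3 Steap3 (0.9874) and Tspan33 (0.9844), and for Nr4a1 Sorcs2 (0.9796) and Skap2 (0.9771). They were the highest values among 11447 genes searched.

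The close relatives moved in part with these genes. Egr3 and Egr4 (paralogs of Egr1) and Nab1 and Nab2 (corepressors that bind EGR proteins) were called lower in all 3 media against NSC, and Nr4a2 and Nr4a3 (paralogs of Nr4a1) higher in all 3. Egr3 (2.52 to 3.02 CPM in NSC, at most 0.49 on day 4) and Egr4 (2.52 to 3.35, at most 0.22) passed the filter only through NSC libraries, so their calls were favoured by it. Egr4, at 2.89 ± 0.421 CPM in NSC, was at 0.10 ± 0.0700 CPM in Astrocyte (log2 fold change -1.82, adjusted p = 4.11e-10), and Nab2, at 63.4 ± 4.98 CPM in NSC, was at 19.4 ± 1.67 CPM (-1.66, adjusted p = 2.95e-10). Nr4a3 rose from 3.37 ± 0.436 to 10.96 ± 0.471 CPM in Astrocyte (1.46 log2, adjusted p = 1.71e-08). In Oligodendrocyte Nr4a1 fell against NSC whereas Nr4a2 (1.06 log2, adjusted p = 2.27e-07) and Nr4a3 (0.61, adjusted p = 0.000344) rose. With T3 against none, Nr4a3 was lower (-0.44, adjusted p = 0.00542) and Nr4a2 higher (0.51, adjusted p = 0.000443).

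Of 7 AP-1 relatives, 6 were matched and 3 tested (Fosl2, Jdp2 and Atf2). Jdp2, a repressive partner of JUN proteins, was higher than in NSC in Astrocyte (0.38 log2, adjusted p = 0.000978) and Oligodendrocyte (0.57, adjusted p = 7.63e-05). Atf2, a partner of Jun at cyclic AMP response elements, was higher in Neuron than in NSC (0.36, adjusted p = 0.000115). Fosl1 stayed at 0.08 to 0.50 CPM and Batf3 at 0.06 to 0.89 CPM, and Batf was listed at 0 in all libraries.

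A wider list of 35 other early response genes, 34 of them tested, gave the setting. Against NSC, 14 were called higher and 18 lower in Astrocyte, 12 and 20 in Neuron, and 12 and 17 in Oligodendrocyte. Over all tested genes 48.0%, 43.5% and 48.1% were called higher in these comparisons and 35.6%, 39.6% and 32.2% lower. The median log2 fold changes were -0.21, -0.42 and -0.30 beside 0.15, 0.06 and 0.19 over all tested genes. The extremes lay on both sides. Ctgf, a secreted target of YAP and TGF-beta signalling, rose from 0.94 ± 0.0529 CPM in NSC to 57.9 ± 15.4 in Astrocyte, 40.3 ± 15.5 in Neuron and 71.6 ± 1.53 in Oligodendrocyte. Ctgf passed the filter only through day 4 libraries (0.88 to 0.98 CPM in NSC), so its calls against NSC were favoured by it. Dusp6, a phosphatase that is induced by ERK and dampens it, fell from 240.4 ± 18.5 CPM to 9.28 ± 2.15, 18.6 ± 3.39 and 16.5 ± 0.198 (log2 fold changes -4.57, -3.63 and -3.78). Plk2, a kinase induced by activity, fell from 102 ± 0.808 CPM to 10.2 ± 0.410, 13.9 ± 0.908 and 18.7 ± 0.0354 in the same order. Klf10, a zinc finger repressor, fell from 99.0 ± 6.66 CPM to 10.7 ± 0.924, 7.81 ± 0.420 and 14.6 ± 0.0566. Rhob, a small GTPase, rose from 32.4 ± 2.84 CPM to 258 ± 13.5 in Astrocyte, 99.4 ± 8.51 in Neuron and 435 ± 30.5 in Oligodendrocyte (3.71 log2 in Oligodendrocyte, adjusted p = 3.86e-13).

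**Figure D4:**
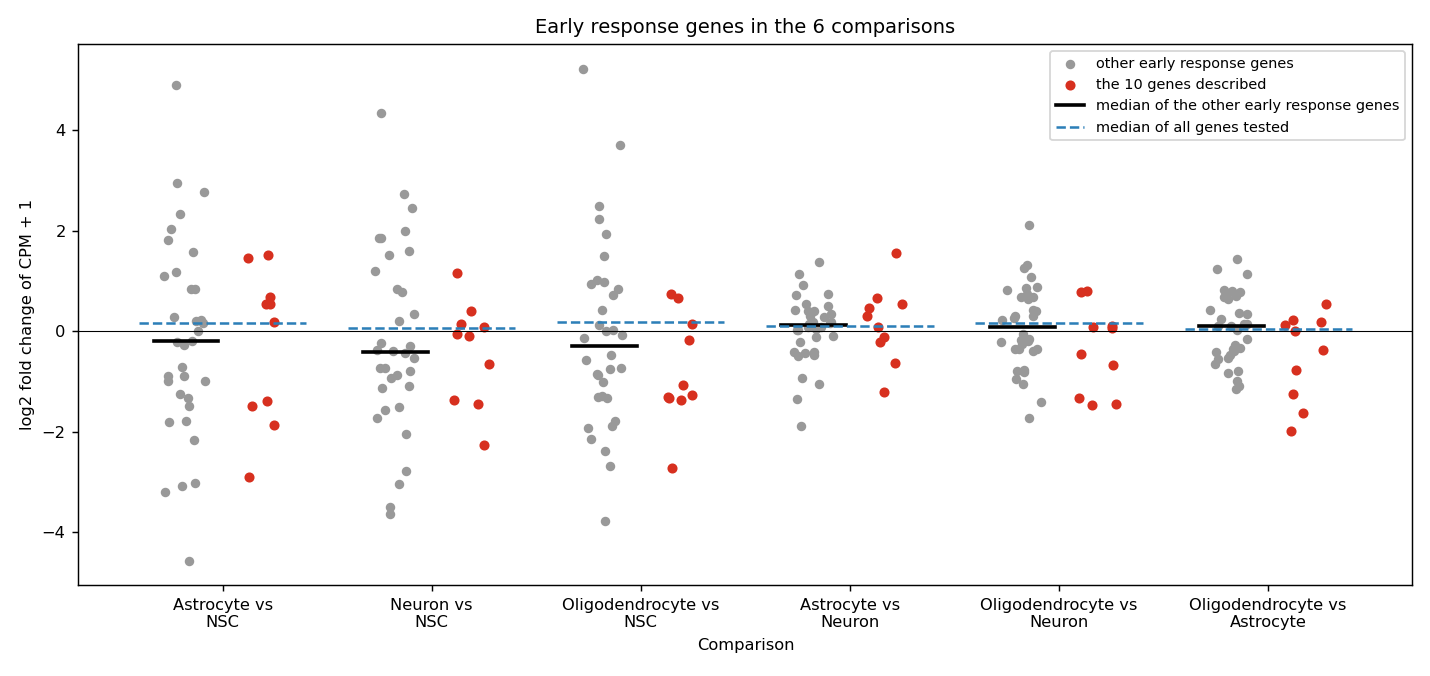
Log2 fold change of CPM + 1 (y axis) of the 34 other early response genes tested (grey) and the 10 genes described (red) in the 6 comparisons, with the median of the grey points (black) and of all tested genes (dashed). Both sets hold genes above and below 0 in each comparison, and the black line lies at -0.21, -0.42 and -0.30 in the 3 comparisons with NSC.

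Between media genes of the same list moved in both directions. With T3 against none 16 of the 34 were called higher and 12 lower, beside 43.9% and 23.6% of all tested genes. The median was 0.09 log2 (all genes 0.15). Rhob was higher by 2.12 log2 (adjusted p = 4.72e-10). Ptgs2, the inducible cyclooxygenase, was lower (-1.74 log2, 1.57 ± 0.0778 CPM against 7.60 ± 0.939 in Neuron), as was Myc (-1.41 log2, 21.3 ± 1.29 against 58.5 ± 5.05 CPM). In Astrocyte against Neuron 13 were called higher and 10 lower, beside 40.3% and 22.0% of all tested genes. Rhob was higher there by 1.37 log2, and Ptgs2 and Sgk1 were lower by log2 fold changes of -1.89 and -1.34. In Oligodendrocyte against Astrocyte 12 were called in each direction, led by Plk3 (1.44 log2), Gadd45g (-1.16) and Sgk1 (1.14). Over all tested genes 28.7% were called higher there and 23.5% lower.

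Of 17 upstream factors and kinases, all tested, 11 were called lower in Astrocyte, 12 in Neuron and 11 in Oligodendrocyte against NSC. In the same order 4, 4 and 3 were called higher, and the medians were -0.49, -0.66 and -0.28 log2. Over all tested genes 35.6%, 39.6% and 32.2% were called lower in these comparisons and 48.0%, 43.5% and 48.1% higher. Rps6ka1 (the ERK-activated kinase RSK1) stood at 52.6 ± 1.5 CPM in NSC and 29.9 ± 1.87, 17.6 ± 1.13 and 15.4 ± 0.651 in the 3 media. Creb1, which binds cyclic AMP response elements, stood at 113 ± 7.57 CPM in NSC and 56.3 ± 1.78, 71.1 ± 4.42 and 62.0 ± 0.219 in the 3 media. Elk3, an ETS partner of serum response factor, was lower in Oligodendrocyte than in NSC (-1.84 log2, adjusted p = 2.28e-10) and than in Neuron (-0.85, adjusted p = 1.87e-06). Against NSC it was also called lower in Astrocyte (-0.64) and Neuron (-0.99). With T3 against none, 9 of the 17 were called higher and 4 lower, beside 43.9% and 23.6% of all tested genes. Mapk9 (JNK2, a kinase of Jun) rose by 0.73 log2 and Mkl2 (a coactivator of serum response factor) by 0.82. These are RNA levels and say nothing of kinase activity.

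Heat shock genes were listed beside these genes as a sign of stress at collection, and 7 of 8 were tested. Against NSC 2 were called higher and 4 lower in Astrocyte, 2 and 5 in Neuron, and 2 and 4 in Oligodendrocyte. Over all tested genes 48.0%, 43.5% and 48.1% were called higher in these comparisons and 35.6%, 39.6% and 32.2% lower. Hspa8, the constitutive chaperone, was at 1278 ± 72.4 CPM in NSC and 820 ± 68.7, 637 ± 43.4 and 874 ± 47.3 in the 3 media. The inducible Hspa1a can share reads with its near-identical copy Hspa1b and is uncertain for that reason. It was at 0.66 ± 0.104 CPM in NSC and 4.62 ± 0.420, 3.76 ± 0.698 and 6.02 ± 0.375 in the 3 media. The log2 fold changes were 1.76, 1.51 and 2.08 (adjusted p = 2.51e-09, 1.35e-08 and 1.78e-09). Hspa1a passed the filter only through day 4 libraries (0.59 to 0.78 CPM in NSC), so these calls were favoured by it. With T3 against none, 6 of the 7 were called higher and 1 lower, beside 43.9% and 23.6% of all tested genes. Fos, Junb and Nr4a1 were lower there, and the part of stress at collection in the results was not tested.

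The 10 genes are short, as early response genes are known to be. Their median span on build mm9 was 4.27 kb, against 24.1 kb over the 13342 genes tested, and 9 of the 10 spanned under 10 kb, as did 25.6% of the tested genes. Jun (chr4:94715725-94718913), Junb (chr8:87500811-87502617), Jund (chr8:73221638-73224515) and Ier2 (chr8:87185230-87186751) have 1 exon each. Fos spans chr12:86814840-86818223, Fosb chr7:19888070-19895394, Egr2 chr10:66998223-67004936, Nr4a1 chr15:101097277-101105223 and Egr1 chr18:35019477-35024638. Atf3, at chr1:192994175-193007219, is the longest at 13.0 kb. On the opposite strand Jun overlaps BC042782 (at most 1.89 CPM), Jund overlaps Gm11175 (at most 1.45 CPM) and Egr1 overlaps Gm17507 (at most 0.02 CPM). The library kit keeps strand, but whether the counting used it is not given in the sources used here.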

How the data were processed

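Libraries had been made with a stranded poly(A) kit, per the labels' protocols. Per the submitters' processing notes, bcl2fastq 1.8.4, TopHat2 2.0.8, HTSeq 0.6.1, edgeR 3.2.4 (R 3.0.0) and HOMER were used with build NCBIM37 (mm9); the sources used here do not give their roles, the annotation or read filters. The authors deposited CPM values of 37991 genes in 11 libraries, rounded to 2 decimals, per the file headers. The listed genes summed to 74.95% to 80.25% of the CPM total. Whole reads could not be recovered from the rounded values, so no count model was run.

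Samples were grouped by the labels into NSC, Astrocyte, Neuron (3 libraries each) and Oligodendrocyte (2). The 13342 genes that reached 1 CPM in 2 or more libraries were fitted on log2(CPM + 1) with limma 3.58.1 in R 4.3.3, over all 11 libraries, with 1 mean per group and a variance trend (degrees of freedom: 7 residual, 5.96 prior). The 6 comparisons were tested two-sided, with Benjamini-Hochberg adjustment over all tested genes within each, and called at an adjusted p under 0.05. Each read is worth 0.0151 to 0.0203 CPM; this number limits the precision of low genes. Sums, shares and promoter motifs were computed in Python 3.11.15 with pandas 2.3.3. The fit was tested on simulated data.

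Named were all 10 genes, their listed relatives, and, of each wider list, the 3 called genes with the largest change and at least 5 CPM in a group in each comparison; for each of the 10 also the 2 most correlated genes with at least 5 CPM in a group, of which 1 is not reported here. The genes and lists were chosen with earlier results of these data known. Alternatives were other pseudocounts (0.1 and 5), no filter, 3 other scalings, no trend, only the groups compared, a replicate block and leaving out each library. Promoter sequences are RefSeq's (GRCm38.p6); the tables matched none for Egr1 or Ier2, and of the 8 matched 5 are printed. Atf7 and Map2 were not matched.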

Additional observations from a re-analysis of the deposited data

How the results depend on the processing

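Of 60 differences (10 genes in 6 comparisons), 44 were called, and 37 of these were called in the same direction under all 20 alternatives. The other 7 were Fos in Astrocyte against Neuron, Fosb in Astrocyte against NSC and against Neuron and in Oligodendrocyte against Astrocyte, Jun in Oligodendrocyte against Astrocyte, Atf3 in Oligodendrocyte against NSC, and Egr1 in Oligodendrocyte against Neuron. Over 1200 recomputed differences, 1148 kept direction and side of the threshold, 19 lost the call and 15 gained one with the same sign, and 18 changed sign, of which 1 also lost a call and 2 gained one. The cause was not tested.

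Sign changes under median-of-ratios scaling were in differences that were not called: Ier2 to -0.012 (Astrocyte against Neuron), -0.034 (Oligodendrocyte against Neuron) and -0.022 (Oligodendrocyte against Astrocyte), and Jun to -0.046 (Oligodendrocyte against Neuron). Under quantile normalization Fosb became -0.14, -0.40 and -0.46 in Astrocyte, Neuron and Oligodendrocyte against NSC (called lower in the last 2, adjusted p = 0.00493 and 0.00394) and -0.066 in Oligodendrocyte against Neuron, Nr4a1 -0.13 in Astrocyte against NSC, Jun -0.081 in Oligodendrocyte against Neuron, and Ier2 -0.12, -0.16 and -0.036 in Astrocyte and Oligodendrocyte against Neuron and Oligodendrocyte against Astrocyte. Leaving out 1 library at a time gave -0.11 to 0.00048 for Atf3 in Neuron against NSC (sign changed without NSC replicate 2), -0.043 to 0.061 for Ier2 in Oligodendrocyte against Astrocyte (without Astrocyte replicate 3 or Oligodendrocyte replicate 1), -0.045 to 0.14 for Fosb in Oligodendrocyte against Neuron (without Neuron replicate 1) and -0.076 to 0.43 for Egr1 in Oligodendrocyte against Astrocyte (without Oligodendrocyte replicate 1).

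Calls gained when 1 library was left out were Junb in Neuron against NSC (0.22, adjusted p = 0.0489, without NSC replicate 3), Jund in Neuron against NSC (-0.18, 0.033, without Neuron replicate 2), Egr1 in Oligodendrocyte against Astrocyte (0.43, 0.0413, without Oligodendrocyte replicate 2), Nr4a1 in Astrocyte against NSC (0.28, 0.0158, without Astrocyte replicate 3) and Nr4a1 in Astrocyte against Neuron (-0.29, 0.0374, without Astrocyte replicate 1, and -0.27, 0.0328, without Neuron replicate 2). Their adjusted p ranged over all alternatives from 0.0489 to 0.904, 0.033 to 0.96, 0.0413 to 0.711, 0.0158 to 0.897 and 0.00108 to 0.29. Fosb in Oligodendrocyte against Astrocyte was not called without Oligodendrocyte replicate 1 (adjusted p = 0.11; range 0.00705 to 0.11).

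Counts of the 10 genes changed by over 1.5 times in 4 cases. Genes called higher in Oligodendrocyte than in Astrocyte went from 2 to 1 with no filter, median-of-ratios scaling, quantile normalization or no trend, and lay between 1 and 2 when 1 library was left out (1 without NSC replicate 1 or 2, Astrocyte replicate 2 or Oligodendrocyte replicate 1). Genes called lower in Astrocyte than in Neuron went from 2 to 4 under median-of-ratios scaling and quantile normalization, where Jun and Nr4a1 were also called. Under quantile normalization those called higher there went from 5 to 3, and those called higher in Oligodendrocyte than in NSC from 2 to 1. Those called lower in Neuron than in NSC went from 4 to 6 under it, which is 1.5 times.

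With the replicate number as a block, none of the 60 calls changed, and 11146, 11079, 10596, 8265, 8894 and 6793 genes were called in the 6 comparisons. Same-numbered libraries deviated together (r over 0.1) in 6 of 15 pairs (r from -0.505 to 0.415), so the numbers were not taken to pair libraries. Depth limits Fosb most, at an estimated 15 to 71 reads a library. Where 1 of the 2 Oligodendrocyte libraries was left out, the other was assumed to vary like the other groups.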
